A study of Mus musculus with 2 samples.

Results

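Genes of the lysosome were compared between a pair of sorted mouse bone marrow populations. The set was a list of 49 genes in 3 classes: subunits and accessory proteins of the vacuolar proton pump (V-ATPase, 18 genes), lysosomal membrane proteins (6) and lysosomal enzymes with their cofactors (25). Cathepsins B to Z were not part of it. A gene was measured where a probe set of the array named that gene and no other, which held for 48 of the 49, out of 19935 genes in all. Atp6v0c, the main proteolipid of the pump's membrane ring, was the gene without such a probe set.

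Lysosomes degrade lipids, glycans and proteins with hydrolases that work at acid pH. The V-ATPase supplies the acid: its V1 sector in the cytosol splits ATP and turns a rotor, and its V0 sector in the membrane carries the protons. Osteoclasts, which descend from the monocyte lineage, place the same pump in the plasma membrane that faces bone and release lysosomal enzymes there, and macrophages are rich in lysosomes as phagocytes. Many lysosomal genes carry an E-box in the promoter that factors of the MiT/TFE family, Tfeb among them, are known to bind.

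The cells were mononuclear bone marrow cells of ddY mice, an outbred strain, aged 6 weeks. They had been stained for RANK, through which RANKL drives osteoclast differentiation, and for the M-CSF receptor c-Fms, and sorted into RANKhigh c-Fmslow and RANKlow c-Fmshigh cells. No genetic change or treatment is named for either population, and the labels do not give the number of mice. Each population was measured on 1 array, and the arrays are called RANKhigh and c-Fmshigh here. No difference below therefore has a replicate check, and no test was made.

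The values are the deposited linear intensities, and a difference is the log2 intensity on the RANKhigh array minus that on the c-Fmshigh array. The transcript of the c-Fms gene Csf1r was 5.02-fold lower on the RANKhigh array (164 against 821), whereas that of the RANK gene Tnfrsf11a was close on both (104 against 119). A guide to background was the 95th percentile of 1189 olfactory and vomeronasal receptor genes, which was 83.8 for RANKhigh and 81.8 for c-Fmshigh cells. Where the lower of the values lay under it, a fold is written "at least" and taken against it. Of the 48 genes, 45 lay above the guide on both arrays and 1, Atp6v0d2, below it on both. As a scale for the size of a difference, 489 genes had a pair of probe sets above the median level. Those probe sets differed from each other by a median of 0.19 and a 90th percentile of 0.65 on the log2 scale. This gap compares probe sets on the same arrays and holds no variation between arrays, sorts or mice.

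Most lysosomal genes of the set were lower on the RANKhigh array than on the c-Fmshigh array. Of the 48 genes 41 were lower and 7 higher, and 16 were lower by 2-fold or more and 0 higher by that size. Over all 19935 genes, 2.38% were lower by 2-fold or more and 2.44% higher by 2-fold or more, and 47% were lower by any amount. The background was also taken over the 10557 genes whose mean over both arrays reached 93.6, the median of all values, as that of 45 of the 48 did. There 4.29% were lower by 2-fold or more and 4.31% higher by 2-fold or more, and 51.6% were lower by any amount. At a size of 1.5-fold, 26 of the 48 genes were lower and 1 higher, beside 7.05% and 6.16% of all genes and 12.4% and 10.2% of the 10557. The median log2 difference was -0.64 for the 48 genes, against 0.01 for all genes and -0.02 for the 10557. In sorted populations of mixed cells, fewer cells of a type and less RNA per cell cannot be told apart.

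The 3 classes differed in how low they were. Lysosomal enzymes and cofactors had a median difference of -0.87, and 12 of 25 were lower by 2-fold or more. The hydrolases alone, without Psap, Npc2 and Grn, had a median of -0.80 with 9 of 22 lower by 2-fold or more. The membrane proteins had a median of -0.67 with 2 of 6 lower by 2-fold or more. V-ATPase genes had a median of -0.30 with 2 of 17. The summed intensity in RANKhigh against c-Fmshigh cells was 8748 against 20094 for enzymes and cofactors, a ratio of 2.30. For the hydrolases alone it was 5870 against 12236, a ratio of 2.08, and for the V-ATPase 12828 against 16159, a ratio of 1.26. The V-ATPase sum rests largely on the brightest pump genes of the RANKhigh array, Atp6v0e, Atp6v1g1, Atp6v0b and Atp6v1f. Those were 1.23-fold apart or less. These class values describe the arrays, and their difference was not tested.

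The ATP-splitting core of V1 differed most within the pump. Atp6v1a, the catalytic subunit, stood at 314 in RANKhigh and 883 in c-Fmshigh cells, a 2.81-fold lower value in the former. Its partner in the V1 head, Atp6v1b2, stood at 746 against 1739, 2.33-fold lower. Both lay beyond the 90th percentile of the probe set gaps, which hold no variation between arrays. Of all genes, 0.73% had a difference as low as that of Atp6v1a or lower, and 1.43% as low as that of Atp6v1b2.

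The remaining V1 subunits were closer. Atp6v1h, a regulatory subunit, stood at 385 against 569 (1.48-fold lower), and Atp6v1c1, which joins the stalks to the membrane sector, at 603 against 837 (1.39-fold lower). Of the stalk subunits, Atp6v1e1 stood at 776 against 1044 and Atp6v1g1 at 1671 against 1734. The rotor shaft subunits were near equal, Atp6v1d at 736 against 826 and Atp6v1f at 1486 against 1612. All 8 V1 genes were lower on the RANKhigh array as deposited (median -0.45), but under quantile normalization Atp6v1f (0.04) and Atp6v1g1 (0.10) were higher. Atp6v1f and Atp6v1g1 each had a pair of probe sets annotated to the same transcripts, and 1 probe set of each may read a near-identical copy elsewhere in the genome. Their differences were -0.18 and -0.06 for the former and -0.04 and -0.07 for the latter.

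The V0 genes lay on both sides of 0, with 4 lower, 3 higher and a median of -0.17. The a subunit, which forms the proton path and sets where the pump goes, has several isoforms, and they differed in direction. Atp6v0a1 stood at 531 on the RANKhigh array against 275, a log2 difference of 0.95, with 97.3% of all genes at or below it. It had the largest difference in that direction among the 48. Atp6v0a2 stood at 196 against 303 (1.54-fold lower), although its probe sets disagreed, with -0.94 and -0.31. Tcirg1, which encodes the isoform of the osteoclast's bone-facing membrane, stood at 327 against 367, a difference of -0.17 that is smaller than the median gap between probe sets.

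The d subunit links the proteolipid ring to the rotor. Atp6v0d1, the widely expressed isoform, stood at 273 against 487 (1.79-fold lower on the RANKhigh array). Atp6v0d2, the isoform known from osteoclasts, stood at 37.1 against 33.1, below the guide on both arrays, so that no fold is given. Of the small membrane subunits, Atp6v0b stood at 1579 against 1423 and Atp6v0e at 2038 against 2514. The accessory genes were Atp6ap1, which assists pump assembly and traffic, at 590 against 921 (1.56-fold lower), and Atp6ap2, also known as the prorenin receptor, at 542 against 589.

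**Figure D1:**
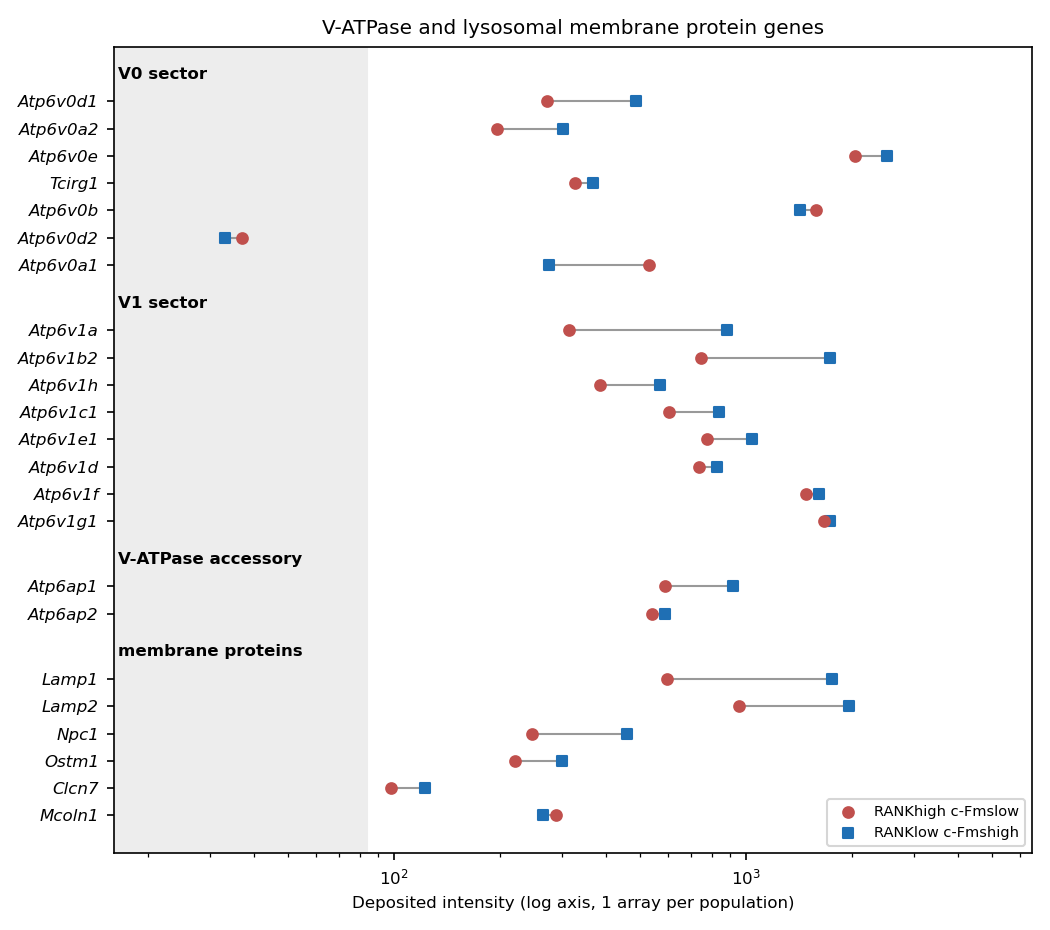
Deposited intensities (log axis) of the V-ATPase and membrane protein genes on the RANKhigh c-Fmslow array (circles) and the RANKlow c-Fmshigh array (squares), 1 array each and with no error bars; the grey area lies below the higher of the background guides (83.8). Squares lie to the right of circles for most genes, with the widest gaps at Atp6v1a, Atp6v1b2, Lamp1 and Lamp2, and Atp6v0a1 has the widest gap the other way.

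Among the membrane proteins, the abundant glycoproteins of the lysosomal membrane were low on the RANKhigh array. Lamp1 stood at 598 against 1759 (2.94-fold lower) and Lamp2 at 959 against 1960 (2.04-fold lower; a log2 difference of -1.03, or -0.89 under quantile normalization). Npc1, which exports cholesterol from the lysosome, stood at 247 against 459 (1.86-fold lower). The channels and exchangers were closer. Clcn7, the chloride-proton exchanger needed for bone resorption, stood at 98.1 against 123, close to the guide. Its partner subunit Ostm1 stood at 221 against 301 (1.36-fold lower). Mcoln1, the cation channel of the lysosomal membrane, stood at 288 against 266, slightly higher on the RANKhigh array by less than the median probe set gap.

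The cofactor and lipid-binding proteins were all lower by 2-fold or more on the RANKhigh array. Psap, the precursor of the saposins that present sphingolipids to hydrolases, stood at 1509 against 4529 (a log2 difference of -1.59). Npc2, the soluble protein that hands cholesterol to Npc1, stood at 777 against 2098 (2.70-fold). Grn, the precursor of granulins, stood at 592 against 1231 (2.08-fold; -1.06, or -0.94 under quantile normalization). The cholesterol partners Npc2 and Npc1 were thus both lower, by 2.70-fold and 1.86-fold.

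All 6 hydrolases of sphingolipid breakdown were lower on the RANKhigh array, with a median of -1.13. Acid ceramidase, Asah1, stood at 186 against 716 (3.85-fold lower). Hexa, the alpha subunit of beta-hexosaminidase, stood at 356 against 1066 (2.99-fold lower). Galc, which cleaves galactosylceramide, stood at 81.1, under the guide, against 239, at least 2.86-fold lower. The other three were less than 2-fold apart. Glb1, beta-galactosidase, stood at 180.0 against 291, Gla, an alpha-galactosidase, at 459 against 703, and Smpd1, acid sphingomyelinase, at 148 against 186.

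The glycosaminoglycan-degrading enzymes fell into a far and a near set. Arsb, arylsulfatase B, stood at 359 against 1294 (3.61-fold lower on the RANKhigh array), and its probe sets gave -1.92 and -1.78. Gusb, beta-glucuronidase, stood at 297 against 779 (2.62-fold lower) and the iduronate sulfatase gene Ids at 141 against 303 (2.15-fold lower). The alpha-L-iduronidase gene Idua (116 against 125) and the heparan sulfamidase gene Sgsh (90.6 against 97.4) were near equal and close to the guide. Naglu, another enzyme of heparan sulfate breakdown, stood at 72.7, under the guide, against 100.2, at least 1.20-fold lower.

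Enzymes of glycoprotein and glycogen breakdown showed no difference of 2-fold. The mannosidase genes Man2b1 (731 against 1241, 1.70-fold) and Manba (144 against 258, 1.79-fold) were lower on the RANKhigh array. Neu1, the lysosomal sialidase, stood at 122 against 114, and Gaa, acid alpha-glucosidase, at 101 against 85.7. Neu1 works in a complex with the protective carboxypeptidase encoded by Ctsa, and the partners had unlike differences, since Ctsa stood at 520 against 1127 (2.17-fold lower).

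Lipa, lysosomal acid lipase, had the largest difference of the whole set. It stood at 243 on the RANKhigh array against 1035 (4.26-fold lower, a log2 difference of -2.09), and 0.23% of all genes were at or below it. Lgmn, the asparagine-specific protease legumain, stood at 190.1 against 393 (2.07-fold lower; -1.05, or -0.99 with 16 added to each intensity). Ppt1, a thioesterase that removes palmitate from proteins, stood at 899 against 1646 (1.83-fold lower) and the acid phosphatase gene Acp2 at 113 against 189 (1.68-fold lower). Tpp1, a tripeptidyl peptidase, went the other way at 322 against 246, a difference of 0.39. Of the 25 enzymes and cofactors, Tpp1 and Gaa (0.23) were higher on that array by more than the median probe set gap. Gaa, however, lay close to the guide and below the median level above which that gap was taken.

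**Figure D2:**
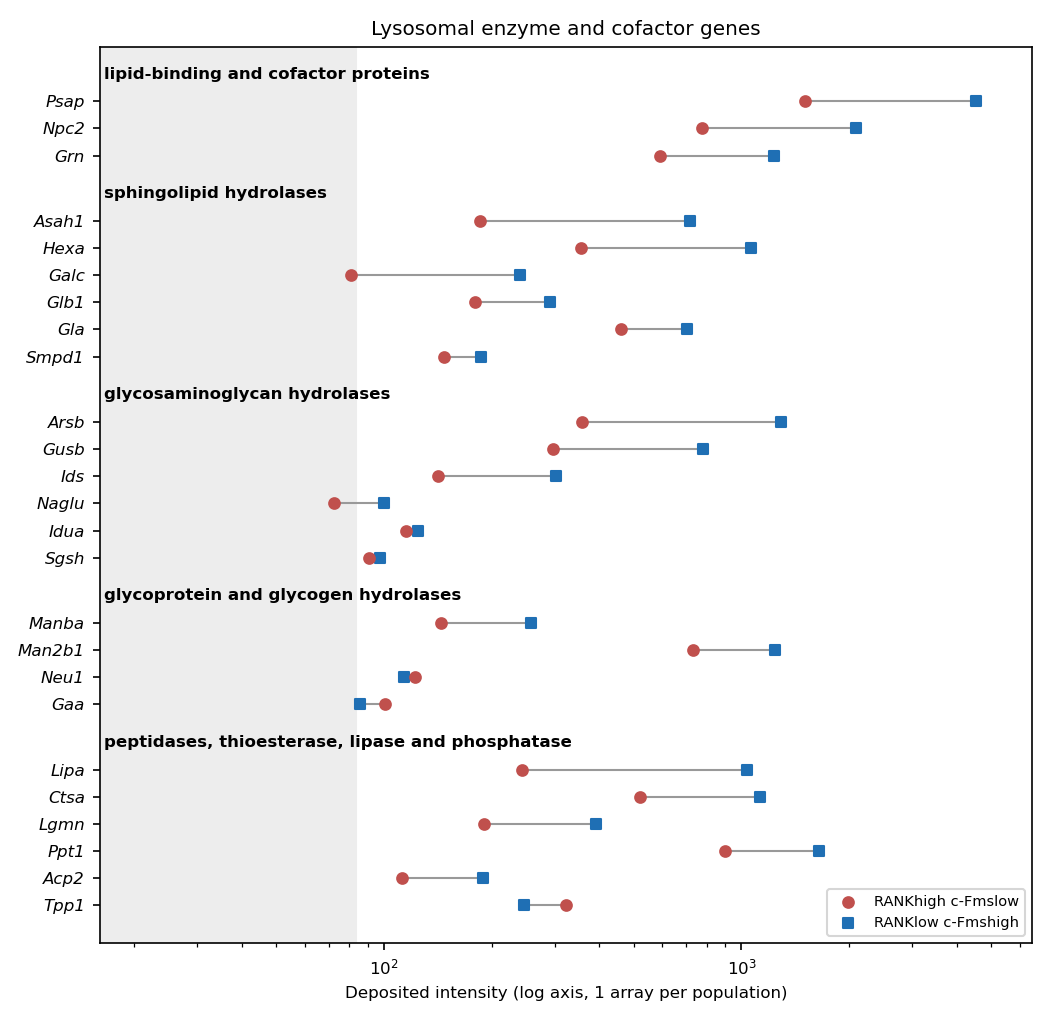
Deposited intensities (log axis) of the lysosomal enzyme and cofactor genes on the RANKhigh c-Fmslow array (circles) and the RANKlow c-Fmshigh array (squares), 1 array each and with no error bars; the grey area lies below the higher of the background guides (83.8). Of the 25 genes 22 have the square to the right, with the widest gaps at Lipa, Asah1 and Arsb; Tpp1, Gaa and Neu1 have the circle to the right.

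Promoter sequences were examined because the genes of the set were mostly low together and because MiT/TFE factors are known to act on lysosomal genes through an E-box. RefSeq windows of GRCm38.p6, 250 bases before to 50 after the start site, were at hand for 41 of the 49 genes. Those not in the table were Atp6v0a2, Atp6v0d2, Atp6v1b2, Atp6v1c1, Atp6v1g1, Atp6v1h, Npc1 and Asah1. The letters searched were CACGTG, which read the same on both strands, and the longer TCACGTG on either strand, which contains them. The Lamp1 promoter shows the densest arrangement, with 4 copies of the E-box (capitals) in the 250 bases before its start site, at chr8:13158911-13159160 on the + strand. The same stretch of Lipa, the gene with the largest difference, at chr19:34527475-34527724 on the - strand, holds none.
Lamp1: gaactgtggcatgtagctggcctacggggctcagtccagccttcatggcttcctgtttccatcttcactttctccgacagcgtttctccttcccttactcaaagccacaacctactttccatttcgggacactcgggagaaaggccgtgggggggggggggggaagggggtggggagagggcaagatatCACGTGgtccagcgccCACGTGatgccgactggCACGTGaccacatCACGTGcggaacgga
Lipa: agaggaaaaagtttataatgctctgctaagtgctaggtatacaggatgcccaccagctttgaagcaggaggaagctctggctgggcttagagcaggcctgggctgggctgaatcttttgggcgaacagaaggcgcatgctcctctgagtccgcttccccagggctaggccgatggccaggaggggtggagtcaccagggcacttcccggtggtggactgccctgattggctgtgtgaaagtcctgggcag

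In the whole set, 14 of 41 genes (34.1%) had CACGTG in a window, and the same 14 had TCACGTG. Among all 27025 genes of the promoter table, 8.09% had the shorter and 4.29% the longer letters. Among 15010 protein-coding genes measured on the arrays the shares were 9.57% and 5.43%. The 14 genes came from each class: 4 of 12 V-ATPase genes, 3 of 5 membrane protein genes and 7 of 24 enzyme and cofactor genes. Of 22 copies in their windows, 18 were centred within 100 bases of the start site, as the plot of E-box positions shows.

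Among genes with a window, the median of those with the E-box was no lower than that of those without it. Asah1 (-1.94) and Atp6v1b2 (-1.22) had no window and are in neither group. A part of MiT/TFE factors in the differences was not tested. The 14 genes with TCACGTG had a median difference of -0.54 and 4 were lower by 2-fold or more, whereas the 26 measured genes without it had a median of -0.76 and 10 were lower by 2-fold or more. Windows of 30 bases around the E-box (capitals) are given for Atp6v1a, Ctsa and Lgmn, which were lower by 2-fold or more as Lamp1 was, and for Clcn7, Mcoln1 and Gaa, which were not. Atp6v1a lies on the - strand at chr16:44139373-44139402, Ctsa on the + strand at chr2:164833749-164833778 and chr2:164833766-164833795, and Lgmn on the - strand at chr12:102439124-102439153. Clcn7 lies on the + strand at chr17:25133364-25133393 and chr17:25133386-25133415, Mcoln1 on the + strand at chr8:3500436-3500465 and chr8:3500462-3500491, and Gaa on the + strand at chr11:119267811-119267840.
Atp6v1a: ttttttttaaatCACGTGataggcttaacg
Ctsa, upstream copy: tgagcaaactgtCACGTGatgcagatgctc
Ctsa, downstream copy: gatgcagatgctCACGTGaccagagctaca
Lgmn: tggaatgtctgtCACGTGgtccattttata
Clcn7, upstream copy: tccgtcgtcagtCACGTGggcaccgatgat
Clcn7, downstream copy: ccgatgatagatCACGTGagacctgggcgc
Mcoln1, upstream copy: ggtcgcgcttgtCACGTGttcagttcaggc
Mcoln1, downstream copy: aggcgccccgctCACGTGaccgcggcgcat
Gaa: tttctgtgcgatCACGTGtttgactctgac

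Atp6v1a, Lgmn and Gaa hold a single copy in the window, and Ctsa, Clcn7 and Mcoln1 a pair each. The labels upstream and downstream give the order within a pair. Both Mcoln1 copies lie before the start site, centred 68 and 42 bases upstream of it. The downstream copies of Ctsa and Clcn7 are centred 8 and 10 bases after it. A match to these letters is a description of the sequence and does not show that a factor binds it.

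**Figure D3:**
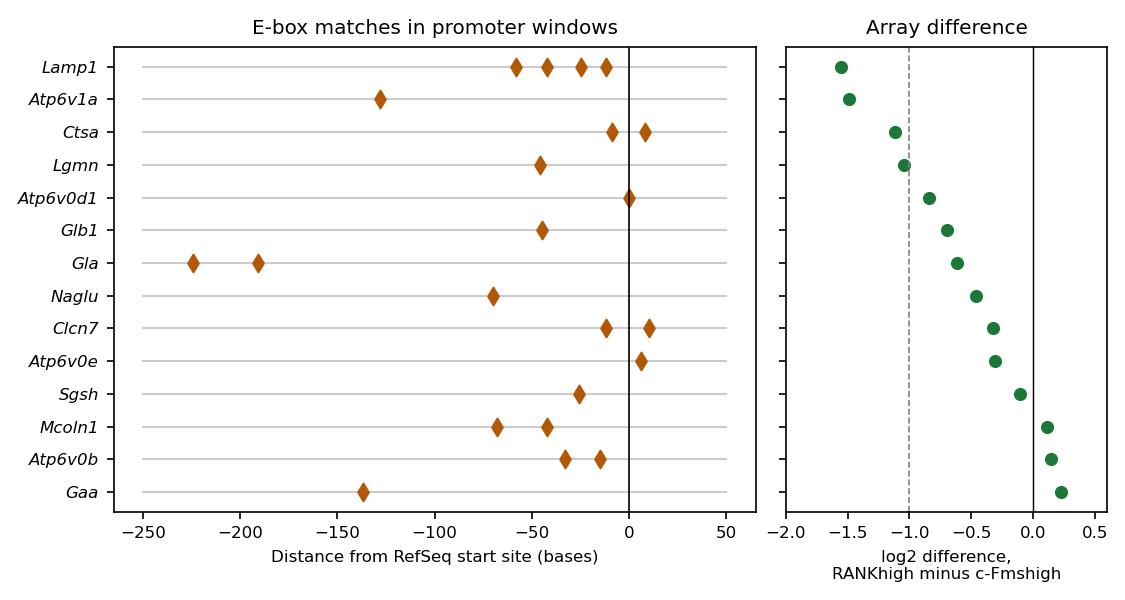
Left, position of each CACGTG match (diamond, at the centre of the letters) in bases from the RefSeq start site in windows from 250 bases before to 50 after it, for the 14 genes with a match. Right, the log2 difference of the same genes (RANKhigh minus c-Fmshigh array, 1 array each), from Lamp1 (-1.56) at the top to Gaa (0.23); the dashed line marks a 2-fold lower value.

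The genes of the factors themselves were measured in a list of 14 transcription factors and of proteins that anchor the growth kinase mTORC1 to the lysosome. Lower values on the RANKhigh array were found for 12, with 1 past 2-fold, and the median was -0.41. Over all genes 47% were lower by any amount and 2.38% by 2-fold or more (4.29% of those at or above the median level). A count of 1 is therefore not read as a result. The member past 2-fold was Tfec, a MiT/TFE factor found in macrophages, at 403 against 1618 (4.02-fold). The anchor genes Lamtor3 (837 against 1614) and Rraga (297 against 536) were 1.93-fold and 1.80-fold lower. Named after their values were seen, Tfeb stood at 118 against 93.6 and Tfe3 at 98.2 against 98.8, both near the guide, and Mitf at 35.3 against 66.6, below it on both arrays.

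Lists of other lysosomal genes were measured beside the 49. Their counts stand beside 2.38% of all genes lower and 2.44% higher by 2-fold or more. At or above the median level these shares were 4.29% and 4.31%. Of 24 further hydrolases and cofactors 18 were measured, 12 of them lower on the RANKhigh array. Of these lists' genes, 4 hydrolases and cofactors were lower by 2-fold or more and 1 higher by 2-fold or more. Their median of -0.14 was a smaller difference than the -0.87 of the enzymes and cofactors among the 49. Gm2a, the activator protein that works with beta-hexosaminidase, stood at 457 against 1395 (3.05-fold lower), near the 2.99-fold of its partner Hexa. Heparanase, Hpse, stood at 269 against 731 (2.71-fold lower). Acp5, tartrate-resistant acid phosphatase, known from osteoclasts, went the other way at 546 against 188 (2.90-fold higher).

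Of 23 further membrane proteins measured, 14 were lower, 5 by 2-fold or more, 8 higher, 1 by 2-fold or more, and 1 equal on both arrays, with a median of -0.17. Cd63, a tetraspanin of lysosomes and of granules, stood at 2648 on the RANKhigh array against 451 (5.87-fold higher). Hgsnat, an acetyltransferase of heparan sulfate breakdown, stood at 141 against 457 (3.23-fold lower) and Cd68, a macrophage glycoprotein related to the Lamp proteins, at 734 against 1961 (2.67-fold lower).

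Genes that sort enzymes to the lysosome were measured for 16 of 17, with 11 lower in RANKhigh cells, 3 by 2-fold or more, 0 higher by that size and a median of -0.30. The 3 were Cln6, which serves the export of lysosomal enzymes from the endoplasmic reticulum, at 161 against 367 (2.28-fold), the retromer subunit Vps26a at 401 against 861 (2.15-fold) and Sumf1, which activates sulfatases such as those of Arsb, Ids and Sgsh, at 95.4 against 197 (2.06-fold). The 7 further V-ATPase subunit genes, isoforms used in kidney, brain or testis for the most part, had a median of -0.10 and none was 2-fold apart. Below the guide on both arrays were 4 of the 7. Above the median level were Atp6v0e2 (134 against 161) and Atp6v1g2 (155 against 166).

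Cell type markers differed between the arrays along with the lysosomal genes. Over all genes, 47% were lower by any amount, 2.38% lower by 2-fold or more and 2.44% higher by that size. At or above the median level these shares were 51.6%, 4.29% and 4.31%. All 9 measured monocyte markers were lower in RANKhigh cells, 6 by 2-fold or more, with a median of -1.98. Their summed intensity was 7852 against 25590, a ratio of 3.26. The smallest of these differences was that of Cd14, at 467 against 494 (-0.08), less than the median probe set gap. All 9 lay above the guide on both arrays. Csf1r, the gene of the sort receptor c-Fms, is among the 9, so its difference is not independent of the sort. The enzyme and cofactor sum differed by 2.30 times and the V-ATPase sum by 1.26 times. The difference of Lipa (-2.09) was the one below the median of the monocyte markers, and the difference of Csf1r was -2.33. Macrophage markers were divided, with 5 of 10 lower, 5 higher and a median of -0.02, and Mertk and Marco below the guide on both arrays. Of 6 dendritic cell markers 5 were lower, with a median of -0.70, but only Flt3 lay above the guide on both arrays. Zbtb46 and Xcr1 lay below it on both, and Cd209a, Clec9a and Itgax on the RANKhigh array. The median therefore rests in part on values under the guide. With folds taken against the guide where a value lay under it, only Cd209a was lower by 2-fold or more.

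Markers of other lineages were higher on the RANKhigh array. Their counts stand beside 2.44% of all genes higher by 2-fold or more, and 4.31% of those at or above the median level. All 10 neutrophil markers were higher, 8 by 2-fold or more (summed intensity 43642 against 13950), and 4 of 6 eosinophil markers were higher by 2-fold or more (12164 against 1171, all 6 summed), with Il5ra at least 1.21-fold higher. All 9 B lineage markers (13581 against 3704) and all 9 erythroid markers (14811 against 3516) were higher by 2-fold or more. Of 10 T and NK cell markers 6 were higher by 2-fold or more (3190 against 1154), and Cd4 and Ncr1 lay below the guide on both arrays. Of 6 basophil and mast cell markers, 4 were higher by 2-fold or more (3106 against 749), and of 4 megakaryocyte markers 1 was (1987 against 936). The part of these cell types in the differences of the lysosomal genes was not tested.

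Of 10 osteoclast markers 5 were lower and 5 higher on the RANKhigh array, with a median of 0.05. Higher by 2-fold or more were 3, beside 2.44% of all genes and 4.31% of those at or above the median level. The 3 were Car2 (carbonic anhydrase), Mmp9 (a gelatinase) and Acp5. Mmp9 stood at 277 against 75.2, the latter under the guide, so it was at least 3.38-fold higher. By that size 0 were lower, with the integrin gene Itgb3 at -0.67. The summed intensity of the 10 was 4757 against 1796, of which Car2 made up 3300.1 and 824. That of the other 9 was 1456 against 972. Below the guide on both arrays were 4, among them Ctsk, the collagen-degrading cathepsin (59.7 against 73.8), and Dcstamp, a protein of cell fusion (50.7 against 53.2). Among the 49 genes, those tied most closely to bone resorption were thus near equal, modestly lower or below the guide. Tcirg1 (-0.17) was near equal and Atp6v0d2 below the guide. Ostm1 (-0.45) and Clcn7 (-0.32) were modestly lower, Clcn7 with values close to the guide.

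**Figure D4:**
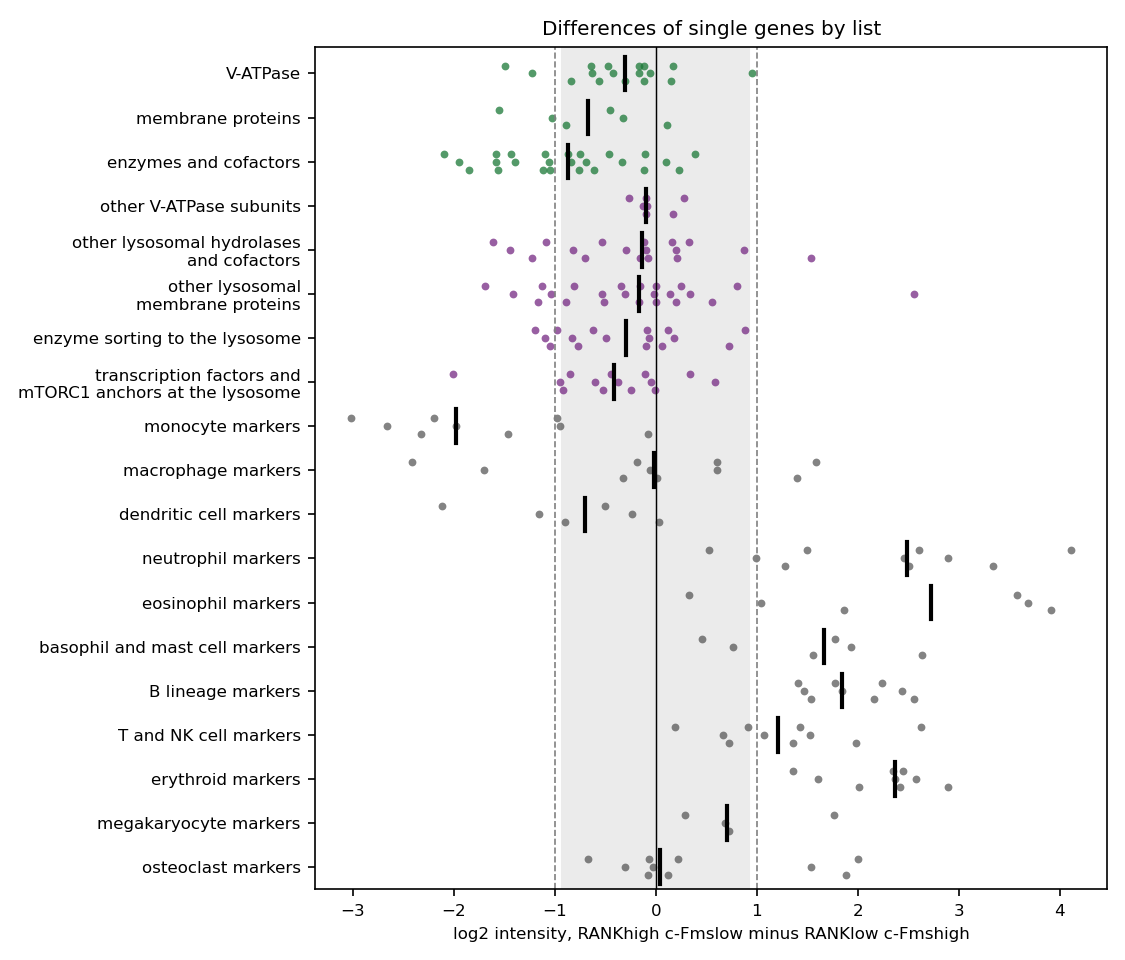
Log2 differences (RANKhigh minus c-Fmshigh array, 1 array each) of single genes, 1 point a gene and 1 row a list, for the lysosomal classes (green), further lysosomal genes (purple) and cell type markers (grey); vertical spread within a row has no meaning. Black bars are list medians, dashed lines mark 2-fold and the grey area holds the central 90% of the 10557 genes at or above the median level; the medians run from -0.87 for enzymes and cofactors to -0.30 for V-ATPase genes, against -1.98 for monocyte markers and 2.48 for neutrophil markers.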

How the data were processed

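The authors deposited an intensity on a linear scale for each probe set of each array. GCOS 1.4 and RMA were used per the submitters' processing notes, with roles and order not given in the sources used here, nor a genome build. Intensities ran from 19.9 to 13198 (median 94.5) on the RANKhigh array and from 20.3 to 13453 (median 92.6) on the other.

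The annotation of 2016 gave a single gene to 21780 of the 28815 probe sets. It gave several to 1605, which were set aside, and did not list 5430. Log2 intensities were averaged over the probe sets of a gene without scaling, pseudocount or filter. Of the 48 genes measured, 44 had 1 probe set and 4 a pair. With 1 array per group there was no test, and the number of arrays limits the precision. Members, lists, the 2-fold rule and the naming rule were chosen with earlier results of these data known. All members are named, and of each further lysosomal list the 3 genes with the largest absolute difference at or above the median level, except those marked as named after their values were seen. Promoters are RefSeq windows of GRCm38.p6. Calculations used Python 3.11.15, numpy 2.4.6 and pandas 2.3.3, tested on simulated data.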

Additional observations from a re-analysis of the deposited data

How the results depend on the processing

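The alternatives were median scaling, quantile normalization, the highest probe set of each gene, 16 added before log2, a floor at the receptor gene percentile, members at or above the median level and, for the V-ATPase, leaving out its accessory proteins. Over these the number of members lower by 2-fold or more on the RANKhigh array ran from 14 to 16 and that higher by 2-fold or more stayed at 0. The medians ran from -0.37 to -0.21 for the V-ATPase, from -1.05 to -0.85 for enzymes and cofactors and from -0.70 to -0.64 for membrane proteins. At 1.5-fold, 26 members were lower and 1, Atp6v0a1, was higher, beside 7.05% and 6.16% of all genes (12.4% and 10.2% of those at or above the median level). Of 240 member differences recomputed, 238 moved by less than 0.19, the median gap between probe sets of a gene. The others were Atp6v0a2 (-0.31 with its highest probe set) and Naglu (-0.26 with the floor). Atp6v1f (0.04) and Atp6v1g1 (0.10) changed sign under quantile normalization. No paired analysis was possible because each population has 1 array, and for the same reason no replicate could be left out. Signal over background limits Naglu, Galc and Atp6v0d2.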
